A study of Mus musculus with 8 samples.

Results

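A set of 10 genes of the myeloid programme was followed through 8 mouse samples whose source is given as B-lymphoid. By genotype label 4 of them are c-jun knockout, and the remaining 4 are wild type. The genes were Mpo, Elane, Prtn3, Csf1r, Csf3r, Cebpa, Cebpb, Fcgr3, Itgam and Cd68. These 10 members were taken by name from the 19937 genes that had a probe set with exactly 1 gene symbol, and each was read from its single-symbol probe set of highest mean signal. The question was which of them rise above the median of the array in any sample, by genotype and by the series of the sample titles. All samples carry the strain label SW129/C57BL/6J, and the labels give no treatment, age, deleting allele or passage. The study concerns lymphoid leukemia driven by the fusion kinase BCR-ABL, but the sample labels do not say whether these cells carried it, nor whether samples of a genotype came from separate animals, cultures or clones. The p-values below therefore rest on sample-to-sample spread, part of which may be technical. In each genotype, replicates 1 and 2 bear sample titles starting with RO, while those of replicates 3 and 4 start with D or F.

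B-lymphoid and myeloid cells come from shared progenitors. The factors C/EBPα and C/EBPβ (genes Cebpa and Cebpb) work together with PU.1 (gene Spi1) to switch on granule proteins, the receptors for M-CSF and G-CSF, and surface proteins of monocytes and granulocytes, whereas PAX5 holds such genes silent in B-cell precursors. Forced C/EBP activity can turn mouse B-cell precursors into macrophage-like cells, so myeloid transcripts in B-lymphoid cells can come with a loss of lineage fidelity or with admixed cells. In bulk samples such as these, a few cells with much of a transcript and many cells with little of it cannot be told apart.

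Promoter sequences are shown for 5 members, because the deleted factor c-JUN acts through AP-1 sites and the myeloid programme through C/EBP and PU.1 sites. The windows are RefSeq's, on GRCm38.p6, and run from 250 bases before to 50 bases after an annotated start; 9 of the 10 members had one. The strands are those of the genes, written 5′ to 3′, and capitals mark matches on either strand to TGANTCA (AP-1), TTGCNNAA (C/EBP) or GAGGAA (PU.1). The first 4 stretches are the 250 bases before the start, and the Fcgr3 stretch is the last 30 bases before it. That Fcgr3 stretch lies inside the gene's annotated span, chr1:171051169-171065915, and so not before its most upstream annotated end.

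Cd68, chr11:69666171-69666420, minus strand: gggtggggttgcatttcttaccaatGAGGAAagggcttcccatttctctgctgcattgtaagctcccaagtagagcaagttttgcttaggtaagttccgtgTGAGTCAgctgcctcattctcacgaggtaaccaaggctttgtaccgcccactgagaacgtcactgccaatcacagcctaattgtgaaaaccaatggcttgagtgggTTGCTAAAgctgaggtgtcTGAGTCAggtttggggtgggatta

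Elane, chr10:79886062-79886311, plus strand: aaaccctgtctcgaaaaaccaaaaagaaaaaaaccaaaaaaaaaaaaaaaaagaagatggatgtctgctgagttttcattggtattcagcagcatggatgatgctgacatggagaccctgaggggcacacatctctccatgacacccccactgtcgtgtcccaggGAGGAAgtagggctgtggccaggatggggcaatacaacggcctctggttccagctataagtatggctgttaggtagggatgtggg

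Prtn3, chr10:79879417-79879666, plus strand: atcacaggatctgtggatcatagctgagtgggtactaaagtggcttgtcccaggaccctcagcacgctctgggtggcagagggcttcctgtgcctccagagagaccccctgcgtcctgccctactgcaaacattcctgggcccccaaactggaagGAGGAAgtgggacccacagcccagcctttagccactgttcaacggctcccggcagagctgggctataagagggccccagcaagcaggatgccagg

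Mpo, chr11:87793534-87793783, plus strand: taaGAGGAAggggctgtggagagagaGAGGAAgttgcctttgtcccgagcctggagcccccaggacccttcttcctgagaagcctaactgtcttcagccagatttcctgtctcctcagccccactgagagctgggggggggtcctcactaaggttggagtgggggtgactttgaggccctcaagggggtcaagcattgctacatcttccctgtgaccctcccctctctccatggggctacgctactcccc

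Fcgr3, chr1:171059404-171059433, minus strand: ggTTAAGCAAgagagtccatttccTTCCTC

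The PU.1 letters were in a window of 7 of the 9 members (Mpo, Elane, Prtn3, Csf3r, Fcgr3, Itgam and Cd68), against 28.3% of all 32851 promoter windows. Elane and Prtn3, which are neighbours on chromosome 10, each held them once, ending 80 and 90 bases before the start. The C/EBP letters were in the windows of Fcgr3 and Cd68, against 10.8% of all windows. The AP-1 letters were in the window of 1 member, Cd68, which held them in both places shown in its sequence, and in 7.81% of all windows. A member was counted if any of its windows matched, while the shares are of single windows, so the units differ. A match describes letters in the window and is not evidence of binding.

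The array medians, taken over all 34760 probe sets, ran from 6.93 to 7.22 in knockout and from 6.99 to 7.42 in wild-type samples on the log2 scale. Precision is limited by there being 4 arrays per genotype. Below, "level" means the log2 signal minus the median of the sample's own array; since probe sets differ in their response, a level above 0 is not a detection call and says nothing of abundance relative to another gene. The cells carried the transcripts of their label. All 18 measured B-lymphoid markers were above the array median in at least 1 sample and 15 in all 8, with Igll1 and Vpreb3, parts of the pre-B-cell receptor complex or its partners, at 6.55 to 7.03 and 6.02 to 6.62, and the receptor chains Cd79a and Cd79b at 5.66 to 6.29 and 5.74 to 6.44. Jun, the targeted gene, had levels from -0.47 to -0.013 in the knockout and from 1.41 to 3.14 in the wild-type samples. Of markers of other lineages, 5 of 11 for T and NK cells, 4 of 7 for erythroid cells and megakaryocytes, 4 of 10 for stromal cells, 1 of 8 for mast cells and basophils and 4 of 8 for dendritic cells were above the array median in any sample. Among all genes 64.0% were above it in any sample and 48.7% in all 8. Each count for another lineage was below the 64.0% of all genes, that of 4 of 7 only narrowly. The counts do not show level, and single markers were high in some samples. Fn1, of the stromal list, was at 3.28 and 2.84 in knockout replicates 2 and 3 and at 2.17 in wild-type replicate 2. In the other samples it was at -0.25 to 0.24. Klrb1c, of the T and NK list, was at 1.71 in knockout replicate 4 and 3.12 in wild-type replicate 3, and below 0 in the others.

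Most of the 10 members lay close to the array median or below it, and among them Fcgr3 alone reached more than 1 log2 unit above it. In any of the 8 samples 7 of the 10 members were above the array median, where 64.0% of all genes were. In all 8 samples 1 member, Cebpb, was above it, where 48.7% of all genes were. Fcgr3 was the 1 member over 1 log2 unit above the median in any sample, a mark that 45.4% of all genes passed. Csf1r, Csf3r and Itgam were below the median in all 8. By genotype, 6 members were above it in at least 1 knockout sample and 6 in at least 1 wild-type sample, where 61.2% and 62.4% of all genes were. By title series, 7 were above it in at least 1 D/F sample and 5 in at least 1 RO sample, where 61.5% and 61.9% of all genes were. The number above the median in a single sample ran from 2 (knockout replicate 1) to 6 (knockout replicate 4) in knockout samples and from 4 (replicate 1) to 6 (replicate 3) in wild-type samples, while 55.1% to 57.6% of all genes were above it on each array.

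**Figure D1:**
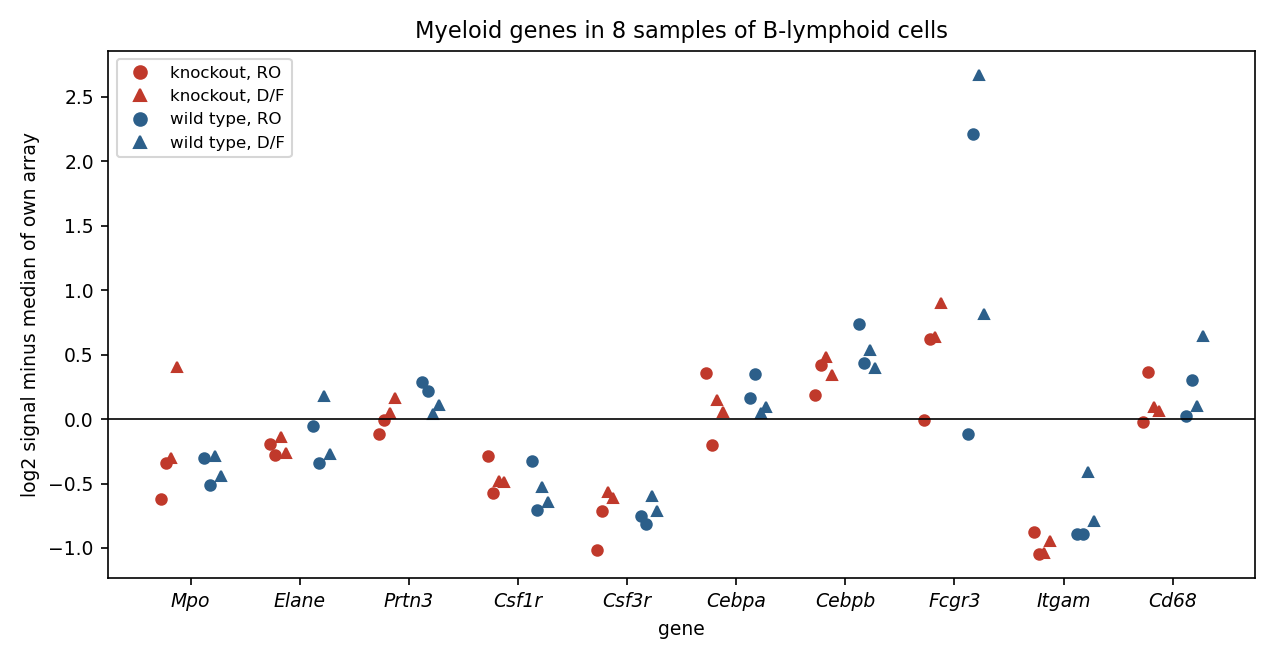
Level of the 10 myeloid genes, as log2 signal minus the median of the sample's own array (vertical axis), with 1 point per sample; red is knockout, blue wild type, circles RO and triangles D/F titles. Fcgr3 reaches 2.67 in a wild-type sample, while Csf1r, Csf3r and Itgam stay below 0 in all 8.

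Among the granule proteins, Mpo, the myeloperoxidase of neutrophil primary granules, had levels of -0.62, -0.34, -0.30 and 0.40 in knockout replicates 1 to 4 and of -0.31, -0.51, -0.29 and -0.44 in wild-type replicates 1 to 4. Only knockout replicate 4 was above its array median, and the other 7 samples were below. Elane, neutrophil elastase, had levels of -0.19, -0.28, -0.14 and -0.27 in knockout and of -0.057, -0.34, 0.18 and -0.27 in wild-type samples. It was above the median in wild-type replicate 3 alone. Prtn3, proteinase 3, which lies next to Elane, had levels of -0.12, -0.0097, 0.05 and 0.17 in knockout and of 0.29, 0.22, 0.036 and 0.11 in wild-type samples. Prtn3 was above the median in 2 knockout and in 4 wild-type samples, and the genotypes overlapped for all 3 granule genes.

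The cytokine receptors were below the median throughout. Csf1r, the receptor for M-CSF that monocytes and macrophages need, had levels from -0.57 to -0.28 in knockout and from -0.71 to -0.33 in wild-type samples. Csf3r, the receptor for G-CSF, had levels from -1.02 to -0.57 in knockout and from -0.81 to -0.60 in wild-type samples. In percentiles of the array, Csf1r lay between 30.3 and 43.0 and Csf3r between 23.1 and 34.1 over the 8 samples.

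The C/EBP factors were near the median and above it in most samples. Cebpa, which directs granulocyte and monocyte commitment, had levels of 0.36, -0.20, 0.14 and 0.052 in knockout and of 0.16, 0.35, 0.048 and 0.091 in wild-type samples. Knockout replicate 2 was the 1 sample below the median. Cebpb, which serves in macrophage activation and emergency granulopoiesis and is also expressed outside the myeloid lineage, had levels of 0.18, 0.42, 0.48 and 0.34 in knockout and of 0.74, 0.44, 0.53 and 0.40 in wild-type samples. Cebpb was above the array median in 8 of 8 samples, and its genotypes overlapped.

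Of the surface and lysosomal genes, Fcgr3, the low-affinity activating receptor for IgG (CD16) of macrophages, NK cells and neutrophils, had levels of -0.011, 0.62, 0.63 and 0.90 in knockout and of -0.12, 2.21, 2.67 and 0.81 in wild-type samples. Wild-type replicates 2 and 3, one of each title series, stood above the other 6 samples, while replicate 1 was the lowest of all 8. On the percentile scale Fcgr3 ran from 47.1 to 85.7, and its range of 2.78 log2 units over the samples was at percentile 98.7 of the ranges of all genes. The inhibitory receptor gene Fcgr2b, which B cells express and whose extracellular part is closely related in sequence, was named after its values were seen, because cross-hybridization could matter: its levels were 3.78, 2.95, 3.51 and 3.63 in knockout and 3.62, 2.80, 3.77 and 3.83 in wild-type samples. Of the samples with high Fcgr3, Fcgr2b was at its lowest in wild-type replicate 2 and near its highest in wild-type replicate 3. Whether probes of Fcgr3 pick up Fcgr2b was not tested.

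The other myeloid genes, taken as whole lists, gave these values beside the Fcgr3 signal. Of 55 measured genes 24 to 26 were above the array median in a knockout sample and 22 to 27 in a wild-type sample, with 23 in wild-type replicate 2 and 27 in wild-type replicate 3. On each array 55.1% to 57.6% of all genes were above it. For the 23 receptors and surface genes, the class of Fcgr3, the number above was 8 in replicate 2 and 12 in replicate 3, and the mean level was between 0.12 and 0.29 in knockout and between 0.14 and 0.25 in wild-type samples. The mean level of the 17 granule and secreted genes was between -0.47 and -0.12 in knockout and between -0.43 and -0.22 in wild-type samples, and that of the 8 lysosomal genes between 2.06 and 2.23 in knockout and between 1.88 and 2.25 in wild-type samples. The mean over 11 T and NK markers, NK cells being another source of CD16, was between -0.61 and -0.33 in knockout and between -0.64 and -0.15 in wild-type samples. Its highest value, in wild-type replicate 3, went with the NK receptor gene Klrb1c, at 3.12 there; without Klrb1c, a choice made after seeing the data, the mean of the other 10 markers was -0.48 in that sample and between -0.60 and -0.51 in the other 7. The part of such cells in the Fcgr3 signal was not tested.

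Itgam, the integrin chain CD11b of Mac-1, had levels from -1.05 to -0.87 in knockout and from -0.89 to -0.41 in wild-type samples, with wild-type replicate 3 the highest. Both remaining probe sets that carry the Itgam symbol are annotated to the ribosomal protein gene Rpl35 as well; their levels of 5.09 to 6.52 were left out. Cd68, a lysosomal glycoprotein of macrophages that other cells also make at lower level, had levels of -0.024, 0.37, 0.093 and 0.062 in knockout and of 0.02, 0.30, 0.10 and 0.65 in wild-type samples. It was above the median in 7 of the 8, and relative to the array median the genotypes overlapped.

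**Figure D2:**
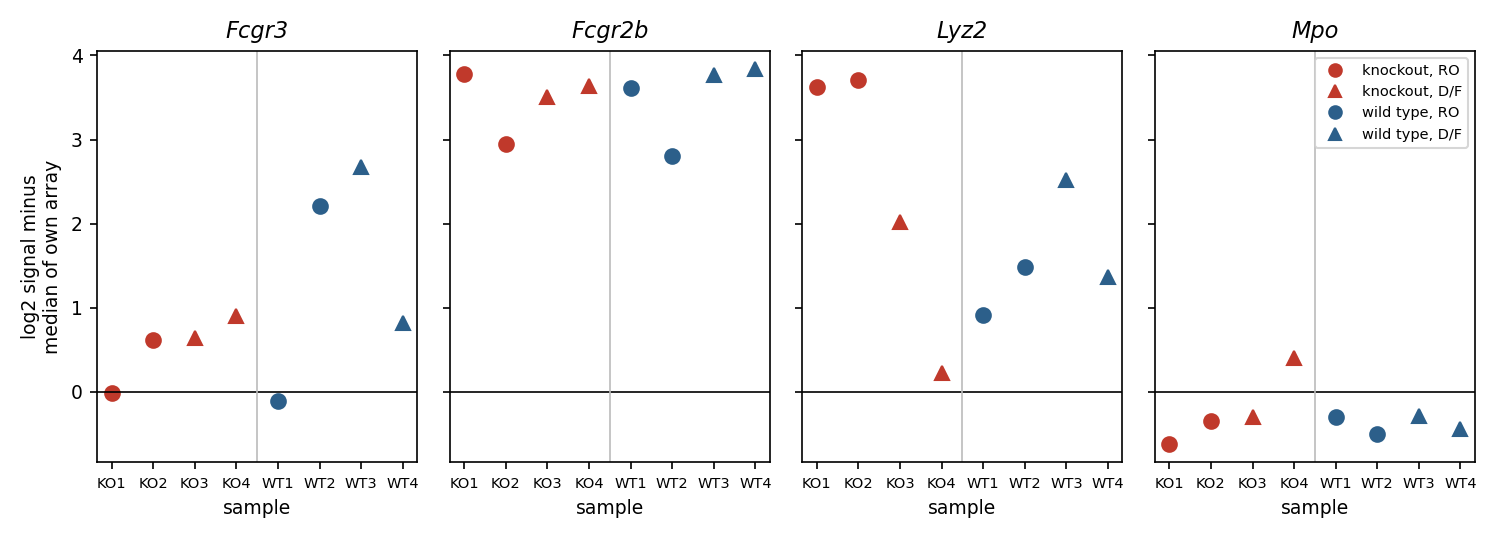
Level of Fcgr3, Fcgr2b, Lyz2 and Mpo in each sample, as log2 signal minus the median of its own array; KO is knockout, WT wild type, numbers are replicates, circles RO and triangles D/F titles. Fcgr3 is high in wild-type replicates 2 and 3, Lyz2 in knockout replicates 1 and 2, and Mpo passes 0 in knockout replicate 4.

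Knockout was then compared with wild type on the deposited log2 scale, in a limma fit over all genes with the title series as a term. After Benjamini-Hochberg adjustment 0 of the 10 members passed, with 0 at an unadjusted p under 0.05, where 0.00502% of all genes passed. Jun, the targeted gene, did not pass either (log2 difference -2.38, SE 0.32, limma adjusted p = 0.106). A gene that did not pass is therefore not shown to be unchanged. Fcgr3 averaged 7.63 ± 0.48 in knockout and 8.64 ± 1.31 in wild-type samples (SD, n = 4 each), a log2 difference of -1.01 (SE 0.49, limma adjusted p = 0.878). The difference was -1.07 among RO samples and -0.96 among D/F samples, but it was -0.59 without wild-type replicate 2 and -0.57 without replicate 3, the samples in which Fcgr3 was high. With wild-type replicate 1 left out it was -1.42, with replicate 4 of that genotype left out -1.48, and with array weights -1.82 (limma adjusted p = 0.288). Cd68 averaged 7.22 ± 0.16 in knockout and 7.52 ± 0.086 in wild-type samples (SD, n = 4 each), a difference of -0.30 (SE 0.16, limma adjusted p = 0.878). On this scale every Cd68 value in knockout was lower than every value in wild type, a separation shown by 1.03% of all genes. Itgam averaged 6.12 ± 0.17 in knockout and 6.50 ± 0.36 in wild-type samples (SD, n = 4 each), a difference of -0.38 (SE 0.20, limma adjusted p = 0.878).

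The genotypes overlapped for Fcgr3 and Itgam, and also for the other 7 members. The differences were 0.016 (SE 0.25) for Mpo, -0.25 (SE 0.22) for Elane, -0.29 (SE 0.20) for Prtn3, -0.058 (SE 0.21) for Csf1r, -0.16 (SE 0.20) for Csf3r, -0.23 (SE 0.21) for Cebpa and -0.32 (SE 0.21) for Cebpb, with limma adjusted p-values from 0.878 to 0.989. Thus 9 of 10 members were lower on average, with a median of -0.27, while 72.0% of all genes were lower and the median of all genes was -0.113. With each array centred on its median, 8 of 10 were lower at a median of -0.12, where 39.7% of all genes were lower and their median was 0.0404. In the RO samples 10 of 10 members were lower in knockout, where 73.5% of all genes were; in the D/F samples 5 were lower and 5 higher, where 47.6% of all genes were lower. The array medians were 7.01 and 6.93 in the knockout and 7.41 and 7.17 in the wild-type RO samples. With centred arrays 8 of 10 members were lower in RO at a median of -0.0761, where 39.6% of all genes were lower and their median was 0.076. The part of the array medians in the RO differences was not tested.

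**Figure D3:**
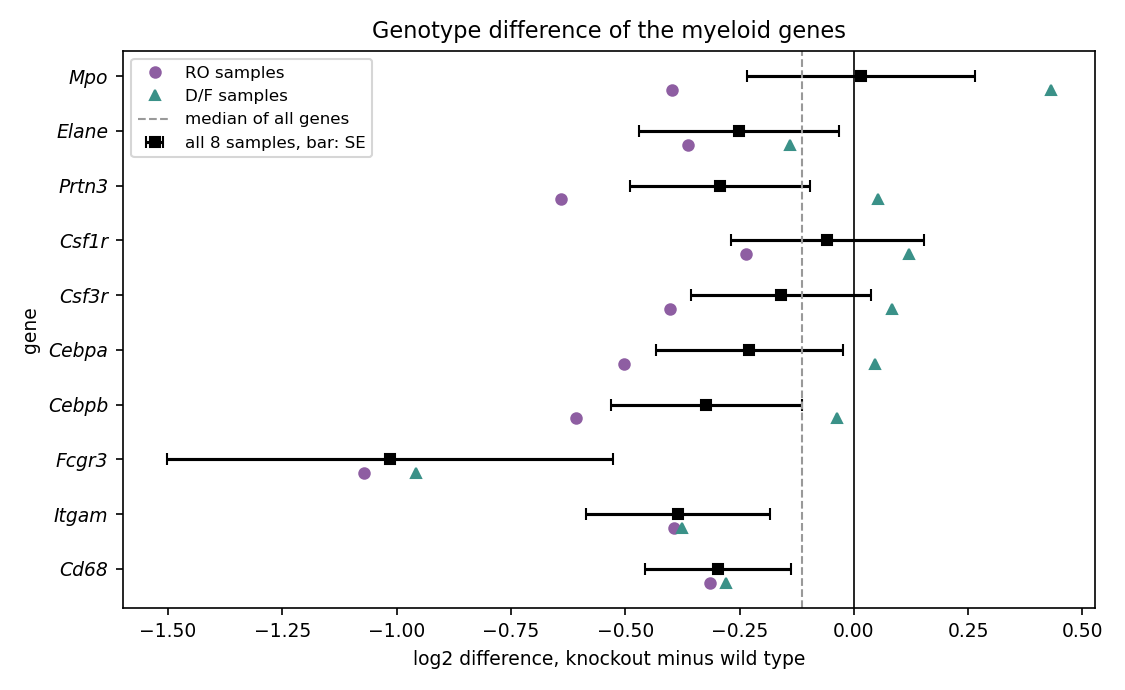
Log2 difference of each myeloid gene, knockout minus wild type (horizontal axis), with squares for the fit over 8 samples, bars of 1 SE, circles for the RO and triangles for the D/F samples alone; the dashed line is the median of all genes, -0.113. The RO circles lie left of 0 for all 10 genes, and the D/F triangles fall on both sides.

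Between the title series, D/F minus RO, 0 of the 10 members differed after adjustment and 0 had an unadjusted p under 0.05, where 0.0201% of all genes passed. The differences ran from -0.0049 (Cebpa) to 0.66 (Fcgr3, SE 0.49), with a median of 0.156, against a median of 0.0505 over all genes. The test of whether the genotype difference itself differed between the title series also passed for 0 of the 10, with 0 at an unadjusted p under 0.05, where 0.0301% of all genes passed. Its estimates were positive for 10 of 10 members and for 71.6% of all genes, and for the members ran from 0.019 (Itgam) to 0.83 (Mpo), with a median of 0.421 against 0.256 over all genes; after quantile normalization the members' median was 0.0517. For knockout minus wild type, Mpo had -0.40 among RO samples and 0.43 among D/F samples. Over both series its difference was -0.21 with knockout replicate 4 left out, and -0.18 with wild-type replicate 4 left out.

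The lists of other genes used in myeloid cells differed in level. These lists also hold genes that are not restricted to myeloid cells, such as Irf8 and Itgb2. A level above the array median is therefore not by itself a sign of a myeloid programme. Of the 17 granule and secreted genes, 5 were above the array median in any sample and 12 below it in all 8, with a median level of -0.76. Of 23 receptors and surface genes 15 were above it in any sample, 6 of them in all 8, and 8 were below it in all 8. Of 7 transcription factor genes 6 were above in any sample and 4 in all 8, and of 8 lysosomal genes 6 were above in all 8. Beside these counts, 64.0% of all genes were above the array median in any sample and 48.7% in all 8. The counts for receptors in any sample and for transcription factors in all 8 were near these shares. Spi1, which encodes PU.1, was at 3.46 to 4.01, and Irf8, a factor of monocyte, dendritic and B-cell development, at 3.44 to 5.09. Csf2rb, the shared signalling chain of the IL-3 and GM-CSF receptors, was at 3.58 to 4.47, Il3ra at 1.18 to 1.86, the toll-like receptor gene Tlr4 at 1.01 to 2.21, and Itgb2, the integrin chain that pairs with CD11b and with the lymphocyte chain CD11a, at 2.42 to 2.87. Zeb2 was at 0.87 to 2.45. The lysosomal genes Lamp1, Lamp2, Ctsb and Ctsd lay between 2.65 and 4.73.

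**Figure D4:**
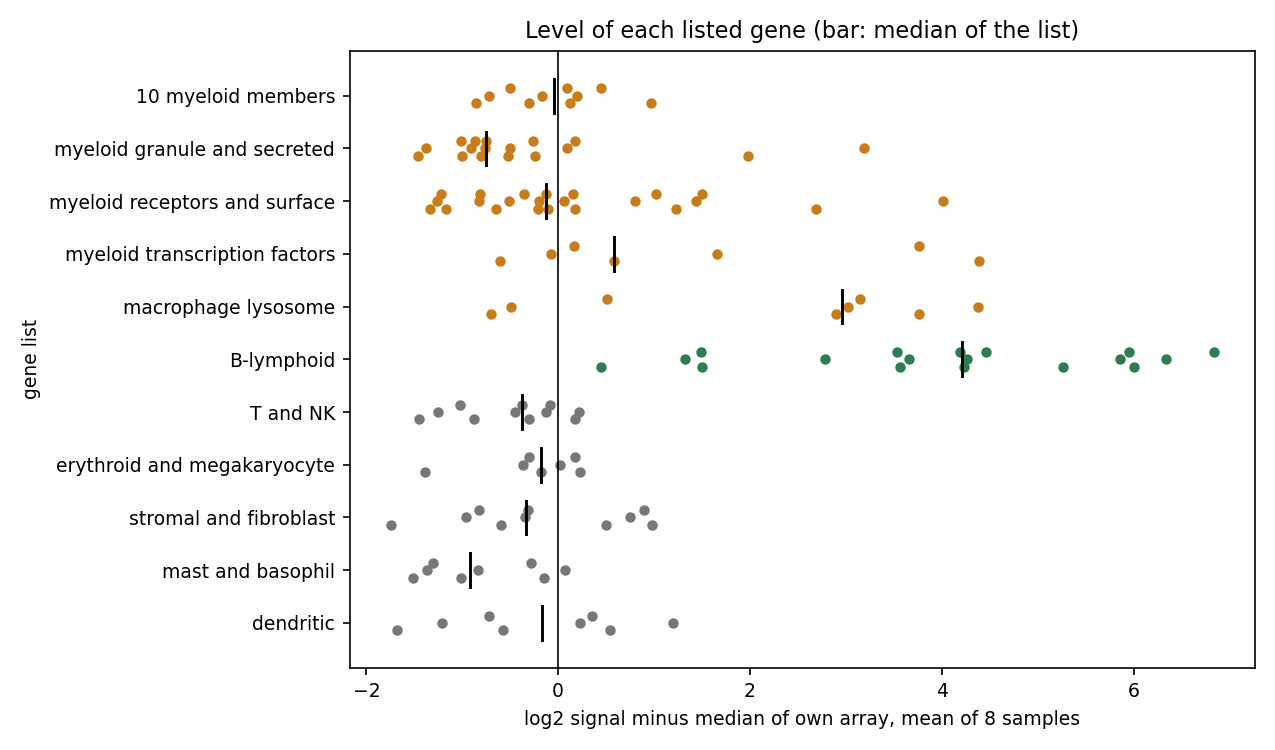
Mean level over 8 samples of every gene in each list, as log2 signal minus the median of its own array (horizontal axis), with 1 point per gene, the list's median as a bar, myeloid lists in orange, B-lymphoid markers in green and other lineages in grey. The medians are -0.76 for granule genes, 2.96 for lysosomal genes and 4.21 for B-lymphoid markers.

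Among granule and secreted genes, Lyz2, the lysozyme of macrophages and granulocytes, had the widest range of level among the 55 measured genes of these lists, 3.49 log2 units. Its levels were 3.63, 3.71, 2.02 and 0.22 in knockout and 0.92, 1.49, 2.51 and 1.36 in wild-type samples, so that both RO knockouts were the highest and a D/F knockout the lowest. Knockout minus wild type was 0.67 (SE 0.58, limma adjusted p = 0.878) over both series, 2.14 among RO samples and -0.80 among D/F samples. The difference between the series was -2.94 (SE 0.79, limma adjusted p = 0.716), which did not pass; without knockout replicate 3 it was -3.84 with a limma adjusted p of 0.0421. Cst7, the cystatin F gene, which cytotoxic and other immune cells make, was at 2.68 to 3.92, Lyz1 at -0.62 to 0.56 and Camp, the cathelicidin gene, at 0.021 to 0.31. Gfi1, a repressor used in granulocytes and in lymphocytes, had levels of 0.21 to 1.5 in knockout and of 0.089 to 1.11 in wild-type samples. As for Lyz2, knockout replicates 1 and 2 and wild-type replicate 3 were the 3 highest, a likeness noted after seeing the values. High levels in knockout replicates 1 and 2 were not particular to myeloid genes. The B-lymphoid marker Il7r, picked after its values were seen, was at 5.39 and 5.51 there and at 1.51 to 4.46 in the other samples.

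In the same fit, which did not call Jun either, 0 of the 55 measured genes of these 4 lists passed for knockout minus wild type. The genes of smallest p in each list had limma adjusted p-values of 0.878. They were Ctsg, cathepsin G, at -0.26 and Lyz2 among granule genes, Csf2ra, the GM-CSF receptor chain, at -0.41 and Sirpa at -0.50 among receptors, Cebpd at -0.26 and Irf8 at -0.40 among transcription factors, and Mpeg1, perforin-2, at -0.50 and Lamp2 at 0.32 among lysosomal genes. With 1 sample left out, the Irf8 difference was between -0.70, when knockout replicate 4 was omitted, and -0.029, when wild-type replicate 1 was omitted; omitting knockout replicate 2 gave -0.079 and omitting wild-type replicate 3 gave -0.61. That of Lyz2 was 1.32 when knockout replicate 4 was omitted, and 0.38 and 0.37 when knockout replicates 1 and 2 were. Omitting wild-type replicates 1, 2 and 3 in turn gave 0.31, 0.44 and 1.28. Csf2ra and Mpeg1 have levels on opposite sides of the median: 0.83 to 0.98 in knockout against 1.01 to 1.30 in wild-type samples for Csf2ra, and -0.93 to -0.31 in knockout against -0.51 to -0.11 in wild-type samples for Mpeg1. Median differences were -0.109 for granule genes, -0.169 for receptors, -0.0616 for transcription factors and -0.0253 for lysosomal genes, beside -0.113 for all genes.

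The members with the widest range of level were Fcgr3 and Mpo. Over the 8 samples the genes whose level was most like that of Fcgr3 were Olfr1226 (Pearson r = 0.970), B3galt5 (0.970), Xrra1 (0.949), Olfr113 (0.943) and Cldn20 (0.942). The ranges of these genes were 0.45 to 1.19 log2 units. For Mpo they were Lgi4 (0.955), Lratd1 (0.948), Flt1 (0.933), Gadd45g (0.933) and Cubn (0.925), with ranges of 0.31 to 0.46. These correlations were the highest among 19937 genes on 8 points that share array scaling.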

How the data were processed

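Total RNA of 8 samples was profiled on 1 Affymetrix MoGene 1.0 ST array each. MAS5 is the tool named, per the submitters' processing notes; for its settings and the probe summarization nothing was given in the sources used here, and this array type lacks the mismatch probes that MAS5 was built on. The authors deposited log2 values for 34760 probe sets; the scale was read from the values, since the mean of the linear values with 2% trimmed is 500 on each array. That scaling leaves array medians that differ and differences that depend on signal, and no detection calls were used.

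Per the platform annotation, 21640 probe sets had 1 gene symbol, 1321 several and 11799 none; 21553 single-symbol probe sets matched a RefSeq gene by Entrez identifier. The members and lists were chosen with earlier results of these data known. Named genes were the members, the up to 4 genes of highest level and 2 of smallest genotype p per myeloid list, up to 4 of highest level per marker list, the 5 most correlated with each of the 2 widest-ranging members, and Jun, without predicted or Rik symbols; the genes said to be picked after their values were seen fall outside this rule. Groups came from the genotype label, and replicate numbers from the order of deposit. The model was run over all genes in limma 3.58.1 under R 4.3.3 (functions lmFit and eBayes, with trend; genotype and title series as terms; the product of both for the interaction), with Benjamini-Hochberg adjustment over all 19937 genes at 0.05; the fit was tested on simulated data. Alternatives were other normalizations, filters, probe-set choices, priors, weights, each title series alone and each sample left out. Promoter windows are from RefSeq (GRCm38.p6); where a gene had several, the one starting farthest upstream is shown.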

Additional observations from a re-analysis of the deposited data

Results flagged for a closer look

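Among 31 members and named myeloid genes, 62 groups of 4 samples were checked on the deposited log2 scale for 1 sample that stood apart, by its gap to the nearest other sample as a share of the group's range; 7 groups passed Dixon's 95% critical value, and chance gives about 1 in 20. In knockout replicate 2 the signal was low for Csf1r (0.948 of the range), Cebpa (0.853), Ctsg (0.909) and Sirpa (0.844), and this array also had the lowest median, 6.93. In knockout replicate 1 it was low for Cd68 (0.907). In wild-type samples it was high for Spi1 in replicate 3 (0.855) and for Ctsd in replicate 1 (0.8294), the samples with the highest array medians of 7.42 and 7.41. The part of the array median in these gaps was not tested.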

How the results depend on the processing

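No paired analysis was possible because the labels carry no replicate numbers. The members passed the adjustment in 0 cases for genotype under 20 alternatives, and for title series and interaction under 16 each. The number of all genes called moved. For genotype it was 1, and it was 0 when only genes above the median gene were tested, 2 with array weights, 32 among RO samples and 79 among D/F samples alone, and 0 to 2 with 1 sample left out. For title series it was 4, and 0 among genes above the median gene, 12 with every probe set or with robust priors, 20 with array weights and 0 to 18 with 1 sample left out. For the interaction it was 6, and 2 after quantile normalization, 0 among genes above the median gene or with array weights, 10 with every probe set or robust priors and 6 to 38 with 1 sample left out. The 7 members above the array median became 1 (Fcgr3) against the 75th percentile of the array, and the 1 above it in all samples became 0 against the median of single-symbol genes or the 75th percentile and 1 to 2 with 1 sample left out. The count over 1 log2 unit, chosen after seeing the data, was 1 under all 12 alternatives.

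Signs of some differences turned, without a call on the turned value. For knockout minus wild type, Csf1r was 0.095 with centred arrays and 0.098 after quantile normalization, and Mpo -0.0014 when arrays were weighted. Among RO samples alone Mpo was -0.40, and Lyz2 was called (2.14, limma adjusted p = 0.0189). Among D/F samples alone Prtn3 was 0.053, Csf1r 0.12, Csf3r 0.083, Cebpa 0.046, Lyz2 -0.80, Irf8 0.36 and Lamp2 -0.060. For D/F minus RO, Prtn3, Csf1r and Cebpb were -0.0044, -0.063 and -0.0052 with centred arrays and -0.0097, -0.062 and -0.0070 after quantile normalization, and Cebpa was 0.14 with array weights. With 1 sample left out, knockout minus wild type ran from -0.21 to 0.19 for Mpo and -0.20 to 0.10 for Csf1r, and D/F minus RO from -0.018 to 0.21 for Prtn3, -0.092 to 0.18 for Csf1r, -0.19 to 0.13 for Cebpa and -0.016 to 0.24 for Cebpb. The Lyz2 interaction passed without knockout replicate 3 (-3.84, limma adjusted p = 0.0421) and not without any other sample. The causes were not tested. With signals near the array median and no detection calls, the size of a difference in most members is uncertain.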
